A study of Mus musculus with 12 samples.

Results

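Bdh1, Oxct1, Acat1 and Slc16a1, 4 genes of ketone body use, are described in mouse hearts labelled as with or without the cardiomyocyte glucocorticoid receptor. They are the rows of the deposited table that carry these symbols, 4 of 24918 rows, each found once, and all 4 passed the filter on low values. The list was proposed with these values in view: its genes were chosen by their cardioGRKO and floxed levels in each sex. For that reason the levels and the genotype differences of these 4 genes are given as a description with their error and without a test. RNA of whole hearts was sequenced in 12 libraries from untreated mice aged 2 months on a C57BL/6 background, 3 libraries in each of 4 groups. The floxed groups, male and female, are homozygous for a receptor gene (Nr3c1) with loxP sites on both sides (GRloxP/loxP) and carry no Cre by their titles. The cardioGRKO groups, male and female, have the same floxed alleles and 1 copy of αMHC-Cre (αMHCCre/+), a Cre driven by the promoter of a cardiac myosin heavy chain gene and so active in heart muscle cells. Wild-type is the genotype entered for all 12 libraries, so the groups rest on the titles and on the column names. No floxed library has Cre, so effects of Cre and of the deletion cannot be told apart.

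Ketone bodies are fuels that the liver makes from fatty acids in fasting and sends to other organs, among which the heart is a strong consumer. Slc16a1 encodes MCT1, a transporter in the plasma membrane that carries β-hydroxybutyrate, acetoacetate and lactate together with a proton. Inside the mitochondrion Bdh1 oxidises β-hydroxybutyrate to acetoacetate, Oxct1 (also called SCOT) moves coenzyme A from succinyl-CoA to acetoacetate, and Acat1 splits the acetoacetyl-CoA into acetyl-CoA for the citric acid cycle. Bdh1 and Acat1 act in both directions, and Acat1 also works at the end of isoleucine breakdown.

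All values are the authors' log2 values after normalization between libraries, so the sequencing depth is unknown. An SD is the spread of the 3 libraries of a group. Standard errors of differences are limma's, from a spread pooled over all 12 libraries. Those of the male differences therefore also carry the spread of the libraries labelled female. Nothing in the labels states that each library is a separate animal, and the p-values therefore cover library spread alone, which may be technical. Nr3c1, the deleted gene, averaged 11.41 in male floxed, 10.85 in male cardioGRKO, 10.74 in female floxed and 10.88 in female cardioGRKO libraries. In the libraries labelled female it was thus higher under the cardioGRKO label, by 0.14 log2, which goes against the labels. Every direction given for those libraries follows their labels. Heart muscle markers stood at the top of the scale (log2 of their summed level 21.48 to 21.64 over the 12 libraries), and 0 of 14 were listed at 0. Markers of stratified epithelium were high in 2 of the 3 libraries labelled female floxed. In that group the log2 of the summed level of the 10 genes ranged from 10.28 to 15.08. The other 9 libraries ranged from 9.77 to 10.36, so the lowest library labelled female floxed was not apart from them. The differences of Bdh1, Oxct1, Acat1 and Slc16a1 and the number of genes called were therefore recomputed without numbers 1 and 2 of that group. So were the calls of the other named genes and the counts of the pathway lists, all given where they moved. Marker lists, shares over all genes, differences between the floxed groups, correlations and likeness were not recomputed in this way. In whole hearts, fewer cells of a type and less RNA per cell cannot be told apart.

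Bdh1 (Entrez 71911) was the gene of the 4 that differed most between the groups. Its values were 10.34, 10.36 and 10.34 in male floxed, 9.34, 9.35 and 9.41 in male cardioGRKO libraries. Libraries labelled female floxed had 9.08, 9.19 and 9.10, and those labelled female cardioGRKO had 9.40, 9.41 and 9.38. The 3 male floxed libraries were high and the 9 others low, with a gap of 0.93 log2 between the lowest male floxed library and the highest of the others. The mean in male cardioGRKO hearts was lower than in male floxed hearts by 0.98 log2 (difference -0.98, SE 0.030, n = 3 each), which is 50.7% of the male floxed level. It was the fifth lowest difference among the 14721 genes tested. Under the labels of the female libraries the difference had the other sign, at 0.27 (SE 0.030), or 121% of the level labelled female floxed. Neither pair of groups overlapped.

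The level of Bdh1 ranked male floxed (10.35 ± 0.013, SD, n = 3) above female cardioGRKO (9.40 ± 0.017), male cardioGRKO (9.37 ± 0.040) and female floxed (9.12 ± 0.060). Both cardioGRKO groups overlapped and differed by 0.028 log2, within the spread of the libraries. The libraries labelled female floxed lay below both cardioGRKO groups without overlap, at 42.8% of the male floxed level. Between the floxed groups the difference was -1.22 log2, larger in size than the difference between the male genotypes.

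The sequence before both annotated starts of Bdh1 is shown because this gene carries the largest difference, with the window of Slc16a1, the gene that differed in the opposite direction, for comparison. The windows cover the 250 bases before a start in RefSeq's annotation of build GRCm38.p6, all on the plus strand. Capitals mark GGTCA, the core of the short site that nuclear receptors bind, and in Slc16a1 also the E-box CACGTG that overlaps it.
Bdh1, first start, chr16:31422047-31422296: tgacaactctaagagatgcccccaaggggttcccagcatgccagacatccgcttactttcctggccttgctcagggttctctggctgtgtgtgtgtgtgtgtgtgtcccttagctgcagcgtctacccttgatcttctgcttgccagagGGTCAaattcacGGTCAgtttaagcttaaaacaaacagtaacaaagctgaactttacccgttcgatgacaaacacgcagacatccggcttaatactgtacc
Bdh1, second start, chr16:31428503-31428752: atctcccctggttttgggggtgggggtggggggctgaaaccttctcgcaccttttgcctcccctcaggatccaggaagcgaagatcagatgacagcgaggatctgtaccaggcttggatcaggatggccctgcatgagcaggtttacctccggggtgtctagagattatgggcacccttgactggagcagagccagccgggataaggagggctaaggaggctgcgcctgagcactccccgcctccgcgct
Slc16a1, chr3:104638414-104638663: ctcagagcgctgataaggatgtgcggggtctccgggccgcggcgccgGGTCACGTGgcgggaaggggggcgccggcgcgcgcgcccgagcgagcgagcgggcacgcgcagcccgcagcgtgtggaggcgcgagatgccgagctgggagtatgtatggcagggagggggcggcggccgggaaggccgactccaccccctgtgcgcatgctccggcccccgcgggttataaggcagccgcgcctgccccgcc
The first Bdh1 window holds GGTCA at 101 and at 89 bases before the start, and the second holds none. The single Oxct1 window holds it once on the opposite strand, and Slc16a1 once. GGTCA was chosen after the windows had been read, and 35.2% of the 32851 windows of all genes hold it on either strand. The glucocorticoid response element (AGAACA and TGTTCT with 3 bases between them) was in none of the 4 windows of Bdh1, Oxct1 and Slc16a1, and 0.00913% of all windows hold it. AGAACA alone, held by 16.1%, was in none of the 4 either. The same was true of the longer nuclear receptor site AGGTCA (14% of all windows), of 2 copies of it with 1 base between them (0.0335%) and of the extended site TCAAGGTCA (0.387%), all searched on both strands and overlapping one another. The E-box, at 200 bases before the start of Slc16a1, is held by 6.02% of windows. The share of G and C was 76.4% in the Slc16a1 window and 49.6% and 60.8% in those of Bdh1, against a median of 52.4%. Which start of Bdh1 the hearts use cannot be read from values per gene.

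**Figure D1:**
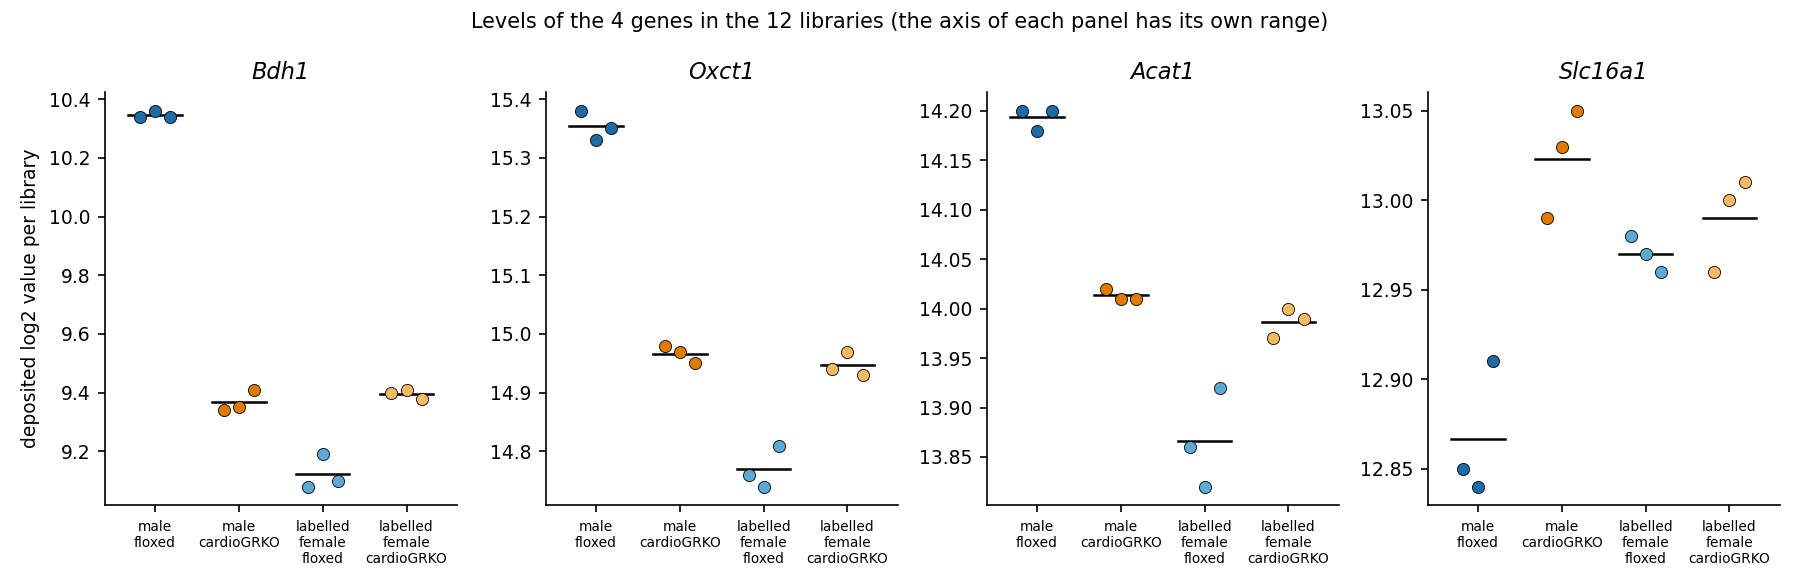
Deposited log2 value (vertical axes, each with its own range) of Bdh1, Oxct1, Acat1 and Slc16a1, with 1 point per library, the 3 of a group side by side and a line at their mean. Bdh1, Oxct1 and Acat1 are highest in the 3 male floxed libraries and lowest in those labelled female floxed, whereas Slc16a1 is lowest in male floxed libraries.

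Oxct1 (Entrez 67041), the enzyme that commits acetoacetate to oxidation, had the same order of groups as Bdh1 apart from the overlapping cardioGRKO groups. It stood at 15.38, 15.33 and 15.35 in male floxed, 14.98, 14.97 and 14.95 in male cardioGRKO, 14.76, 14.74 and 14.81 in libraries labelled female floxed, and 14.94, 14.97 and 14.93 in those labelled female cardioGRKO. Again the 3 male floxed libraries lay above the 9 others, the highest of which was at 14.98. The difference with genotype was -0.39 (SE 0.019) in males, which left 76.4% of the floxed level, and 0.18 (SE 0.019) under the female labels. No library overlapped in either sex. The cardioGRKO groups overlapped between the sexes and differed by -0.025.

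Acat1 (Entrez 110446), the thiolase of the last step, differed least of the 3 enzymes. Its male floxed libraries ranged from 14.18 to 14.20 (SD 0.013) and its male cardioGRKO libraries from 14.01 to 14.02 (SD 0.0061). The libraries labelled female floxed ranged from 13.82 to 13.92 (SD 0.047) and those labelled female cardioGRKO from 13.97 to 14 (SD 0.015). The difference with genotype was -0.18 (SE 0.020) in males, or 88.3% of the floxed level, and 0.12 (SE 0.020) under the female labels, with no overlap in either. Without libraries 1 and 2 labelled female floxed the female difference was 0.071. The cardioGRKO groups of both sexes lay 0.029 apart without overlap.

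Slc16a1 (Entrez 20501), the transporter, differed the other way in males. Its values were 12.85, 12.84 and 12.91 in male floxed and 12.99, 13.03 and 13.05 in male cardioGRKO libraries, a difference of 0.16 (SE 0.022), or 111% of the floxed level. The libraries labelled female floxed had 12.98, 12.97 and 12.96 and those labelled female cardioGRKO 12.96, 13 and 13.01. These overlapped, and their means differed by 0.022 (SE 0.022), which turned to -0.024 after quantile normalization. The 3 male floxed libraries were the lowest of the 12. The order of levels was male cardioGRKO (13.02), female cardioGRKO (12.99), female floxed (12.97) and male floxed (12.87). The cardioGRKO groups overlapped, as did both groups labelled female, and the last in the order was apart from the rest.

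All 4 genes thus had the male floxed libraries at one end, with 3 genes above and 1 below the 9 other libraries. Of all genes tested, 10.1% lay above and 7.63% below in this way. In males, 3 of the 4 had all cardioGRKO libraries below all floxed ones and 1 had them above, where 22% and 19.4% of all genes did so (41.4% in either direction), and these differences chose the genes. Under the female labels the same 3 genes had all cardioGRKO libraries above, beside 21.6% of all genes above, 19.1% below and 40.7% in either direction, and Slc16a1 overlapped. Below in males and above under the female labels was the pattern of these 3 genes and of 7.19% of all genes, a pattern that chose them. Of the 3 enzymes, Bdh1 had the largest male difference and Acat1 the smallest. These values chose the genes, so nothing is read from that order. Among genes with a mean log2 value of at least 13, as Oxct1 and Acat1 have, 57.5% were called lower in males and 53.7% higher under the female labels, with medians of -0.083 and 0.059. These shares are higher than over all genes tested, where 14.6% were called lower in males (27.4% in either direction) and 15.2% higher under the female labels (29.3% in either direction).

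Within groups the 3 enzymes did not all vary together. Deviations of the 12 libraries from their group means had a Pearson r of 0.84 between Oxct1 and Acat1, but of -0.51 between Bdh1 and Oxct1 and -0.57 between Bdh1 and Acat1. With Slc16a1 the r was 0.08, -0.22 and 0.08 for Bdh1, Oxct1 and Acat1. Over the plain values of the 12 libraries the r of Bdh1 was 0.98 with Oxct1 and 0.94 with Acat1, where 4 group means set most of the spread. These are descriptions over libraries that share normalization, and 2 of the 12, both labelled female floxed, contained epithelial RNA.

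Averaged over both genotypes, female minus male was -0.60 for Bdh1 (SE 0.021), -0.31 for Oxct1 (SE 0.013), -0.18 for Acat1 (SE 0.014) and 0.035 for Slc16a1 (SE 0.015). These averages come from the same 12 values by which the genes were chosen, so they are given without a test. Over all genes tested, 20.9% were called lower and 18.9% higher in this comparison (39.8% in either direction), and nothing is read from that for the 4 genes. The averages cover unlike differences. Between the cardioGRKO groups female minus male was 0.028 for Bdh1, -0.025 for Oxct1 and -0.029 for Acat1, and between the floxed groups it was -1.22, -0.59 and -0.33.

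**Figure D2:**
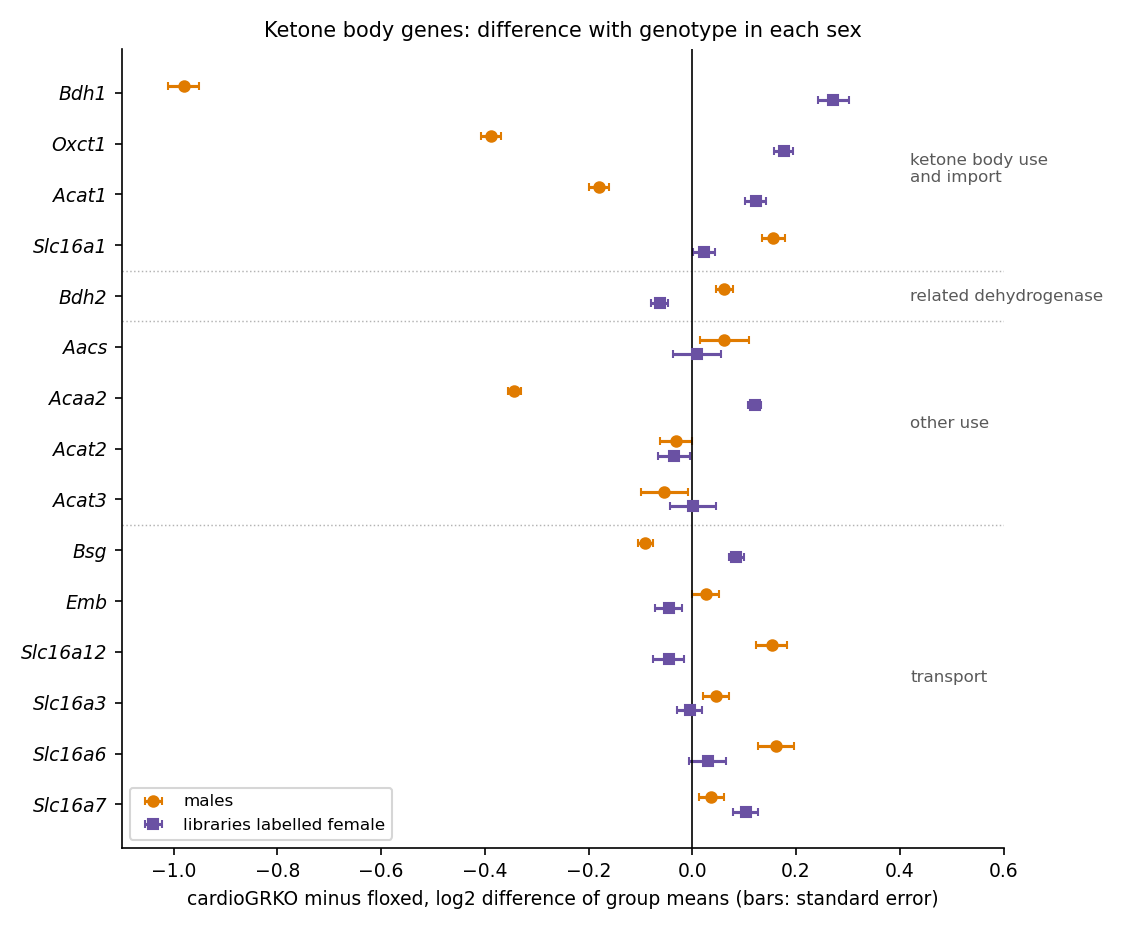
Difference between cardioGRKO and floxed libraries (horizontal axis, log2 difference of group means, bars are limma's standard error) for Bdh1, Oxct1, Acat1, Slc16a1 and other genes of ketone body use and transport, in males (circles) and in libraries labelled female (squares). Bdh1 stands at -0.98 in males and 0.27 under the female labels, and the transport genes shown lie within 0.2 of zero in both.

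Bdh2, a cytosolic dehydrogenase related to Bdh1, stood near the filter at 4.91 to 4.98, where differences are small on this scale. It was called 0.062 higher in males and 0.063 lower under the female labels (limma adjusted p = 0.0078 and 0.0075), but not under the female labels after quantile normalization (0.052). Of all genes tested, 12.8% were called higher in males and 14% lower under the female labels.

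Of 6 genes listed for other steps of acetoacetate and acetyl-CoA handling, 4 were tested, and the testis forms Oxct2a and Oxct2b did not pass the filter. Acaa2, a mitochondrial thiolase of fatty acid oxidation that handles the same kind of bond as Acat1, fell by 0.34 in males (SE 0.012, limma adjusted p = 2.6e-12). It rose by 0.12 under the female labels (SE 0.012, adjusted p = 1.9e-06). The male change minus the female one was -0.46 (adjusted p = 4.8e-12), and 31.3% of all genes were called in that comparison. Aacs, which activates acetoacetate in the cytosol for lipid synthesis, was 8.04 and 8.10 in males and 8.11 and 8.12 under the female labels and was not called (limma adjusted p = 0.38 and 0.91). Without libraries 1 and 2 labelled female floxed its female difference was 0.155 (limma adjusted p = 0.014). The cytosolic thiolases Acat2 and Acat3, related copies whose reads the counting could have split, were not called either (limma adjusted p from 0.43 to 0.99).

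Of 13 tested transport and chaperone genes of 16 listed, 2 rose and 1 fell in males, with a median of -0.026 against -0.0021 over all genes, and 2 rose and 0 fell under the female labels (median -0.0024). These are near the shares over all genes, of which 12.8% were called higher and 14.6% lower in males, and 15.2% higher and 14% lower under the female labels. Without male floxed 1, 2 fell in males, and without female floxed 3, 1 fell under the female labels. Bsg, basigin, the chaperone that brings MCT1 to the membrane, fell by 0.091 in males and rose by 0.085 under the female labels (limma adjusted p = 0.00012 and 0.00028). Both calls were lost after quantile normalization, at -0.015 and -0.0059 (adjusted p = 0.47 and 0.78), and the second changed sign. Embigin (Emb), the other chaperone of this family, was at 5.90 to 6.03 in the 4 groups and was not called. Slc16a6, the transporter MCT7, rose by 0.16 in males (SE 0.035, limma adjusted p = 0.0020), like Slc16a12 (0.15, adjusted p = 0.00087). Slc16a7, the MCT2 transporter, rose by 0.10 under the female labels (limma adjusted p = 0.0035), and Slc16a3, the lactate exporter MCT4, was not called in either sex (0.19 and 0.90).

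Regulators of ketone body genes showed small differences. Of 10 tested of 15 listed, 4 fell and 1 rose in males and 2 fell and 4 rose under the female labels. Of all genes, 14.6% were called lower and 12.8% higher in males, and 14% lower and 15.2% higher under the female labels. The 4 became 2 without male cardioGRKO 3. The 2 that fell under the female labels became 1 in 14 alternatives, among them without any 1 of the female libraries except female cardioGRKO 2, and each of the fits leaving out male cardioGRKO 1, male cardioGRKO 3 or male floxed 3. Hcar2 was not found under that symbol, and Ffar3, Fgf21, Foxa2 and Hnf4a did not pass the filter. The coactivator Ppargc1a fell in both, by 0.082 and 0.19 (limma adjusted p = 0.0099 and 5.4e-06), and its relative Ppargc1b rose in both, by 0.12 and 0.19 (adjusted p = 0.043 and 0.0018). Esrra, a nuclear receptor of mitochondrial genes, fell by 0.074 in males and rose by 0.16 under the female labels (adjusted p = 0.035 and 0.00017). Pparg, the nuclear receptor of fat cells, did the same, at -0.13 and 0.12 (adjusted p = 0.0028 and 0.0043). In males the call of Ppargc1a was lost without male cardioGRKO 3 (0.063), that of Esrra without any 1 of the male libraries except male floxed 1 (0.051 to 0.17), and that of Ppargc1b without male floxed 1 or any male cardioGRKO library (0.051 to 0.23). The call of Ppargc1b was also lost without female floxed 1 or female cardioGRKO 1, and quantile normalization ended the male calls of Esrra (0.27) and Ppargc1b (0.079). Esrra was not called without the intensity trend (0.053), nor Ppargc1b after median centring (0.065).

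The steps around ketone use differed more evenly. Of 10 genes that supply succinyl-CoA, the partner of Oxct1, or take it up again, 10 fell and 0 rose in males, with a median of -0.18 against -0.0021 over all genes, of which 14.6% were called lower. Among genes at a mean log2 value of at least 13, where Ogdh, Dlst, Sucla2 and Suclg1 lie, 57.5% were called lower in males. Over the alternatives the count of the list that fell in males ranged from 7 to 10. Under the female labels 5 rose and 0 fell (median 0.096), beside 15.2% of all genes and 53.7% of those at 13 or more called higher, and 1 fell after quantile normalization. Ogdhl, a relative of the 2-oxoglutarate dehydrogenase, fell by 2.04 in males (SE 0.028, limma adjusted p = 5.1e-18) and stood at 9.94 and 9.93 under the female labels (adjusted p = 0.72). Sucla2 and Suclg1, subunits of succinyl-CoA ligase, fell by 0.19 and 0.22 in males (adjusted p = 3.4e-07 and 1.8e-08), and Sucla2 rose by 0.14 under the female labels (3.0e-05), where Suclg1 was not called (0.15). Ogdh fell by 0.17 in males and rose by 0.21 under the female labels (4.8e-07 and 6.6e-08), but its male call was lost after quantile normalization, at -0.042 (adjusted p = 0.27). In this list 9 of 10 genes had the male floxed libraries above all 9 others, beside 10.1% of all genes.

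Leucine and isoleucine breakdown, which ends in acetoacetate and in the reaction of Acat1, gave a similar count. Of 17 genes listed for it 16 fell and 0 rose in males (median -0.16), and 9 rose and 1 fell under the female labels (median 0.076). Of all genes, 14.6% were called lower in males, and 15.2% were called higher and 14% lower under the female labels. Of genes with a mean log2 value of at least 9, 23.1% were called lower in males and 22.9% higher under the female labels. Of those at 13 or more, where Bckdha, Dld, Echs1, Hadha and Hadhb lie, 57.5% and 53.7% were. The 1 of the list that fell under the female labels became 0 in 7 alternatives, among them without male cardioGRKO 3, female floxed 1, female cardioGRKO 1 or female cardioGRKO 3. The count of 9 that rose ranged from 6 to 9 over the alternatives, and the 16 in males did not change. Bckdhb and Bckdha, subunits of the branched-chain dehydrogenase, fell by 0.38 and 0.22 in males (limma adjusted p = 2.3e-08 and 1.3e-07) and were not called under the female labels. Echs1, a hydratase, fell by 0.22 in males and rose by 0.076 under the female labels (5.8e-08 and 0.0035), a call lost without libraries 1 and 2 labelled female floxed (0.13) and after quantile normalization (0.089). Hadha, of the trifunctional protein, fell by 0.16 and rose by 0.31 (1.9e-06 and 1.0e-09). The male floxed libraries lay above the 9 others in 14 of the 17, beside 10.1% of all genes.

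In lactate and pyruvate handling, which shares MCT1, 11 of 15 genes fell and 3 rose in males (median -0.13), and 7 rose and 0 fell under the female labels (median 0.041). Of all genes, 14.6% were called lower and 12.8% higher in males, and 15.2% higher and 14% lower under the female labels. Dlat, Ldha, Ldhb, Mpc2, Pdha1, Pdhb, Pdk2 and Pdk4 have a mean log2 value of at least 13. At that level 57.5% of genes were called lower in males and 53.7% higher under the female labels. The 7 became 4 after quantile normalization (with 2 that fell), in a fit within 1 sex, without female cardioGRKO 2 (with 1 that fell), and without libraries 1 and 2 labelled female floxed. Ldhb, the lactate dehydrogenase subunit of heart, fell by 0.21 and Ldha, that of muscle, by 0.14 in males (limma adjusted p = 7.8e-09 and 9.4e-07). Under the female labels Ldha rose by 0.087 (0.00017), and Ldhb stood 0.041 higher (adjusted p = 0.044), a call that 14 of the alternatives lost, among them the leaving out of 7 single libraries. Pdhb, of pyruvate dehydrogenase, fell by 0.20 in males (6.3e-07). Its female difference of 0.064 (0.022) was not called after quantile normalization, in a fit within 1 sex, without female floxed 2, female cardioGRKO 2 or female cardioGRKO 3, or without libraries 1 and 2 labelled female floxed (adjusted p from 0.064 to 0.74). Pdk4, a kinase that holds pyruvate dehydrogenase inactive, rose by 0.090 in males and by 0.50 under the female labels (0.0044 and 5.6e-11).

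**Figure D3:**
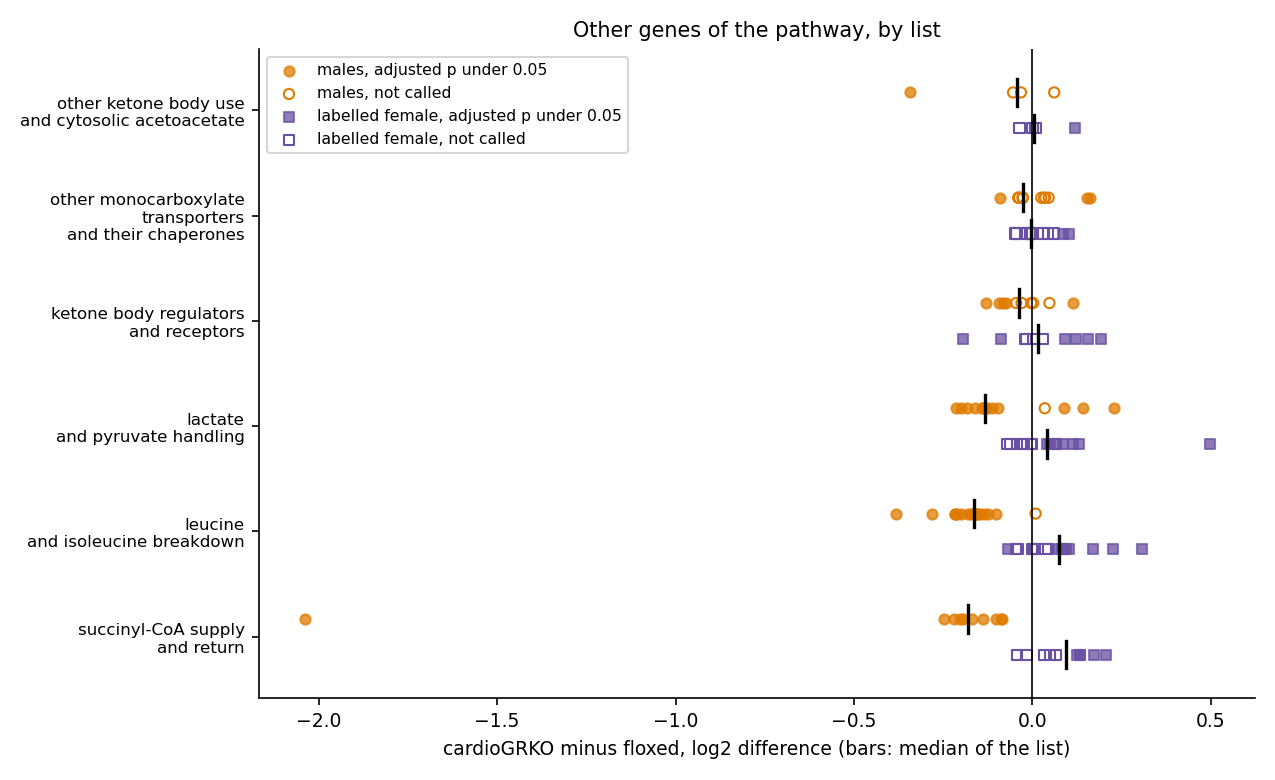
Difference between cardioGRKO and floxed libraries (horizontal axis, log2) for each tested gene of 6 lists around ketone body metabolism, without Bdh1, Oxct1, Acat1 and Slc16a1, in males (circles) and in libraries labelled female (squares). Filled marks passed an adjusted p of 0.05 in limma, bars are list medians, and the lists of succinyl-CoA and of leucine and isoleucine have medians of -0.18 and -0.16 in males and 0.096 and 0.076 under the female labels.

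Several lists of cell markers also differed between genotypes. Of all genes tested, 12.8% were called higher and 14.6% lower in males, and 15.2% higher and 14% lower under the female labels. Of 10 atrial muscle markers 9 rose and 1 fell in males, and 0 rose and 10 fell under the female labels. The log2 of their summed level was 15.68 to 15.69 in male floxed, 17.46 to 17.47 in male cardioGRKO, 17.10 to 17.13 in libraries labelled female floxed and 16.21 to 16.22 in those labelled female cardioGRKO. None of the 10 was listed at 0. Of 14 cardiomyocyte markers 10 fell and 1 rose in males, and 2 fell and 6 rose under the female labels. Of genes with a mean log2 value of at least 13, 57.5% were called lower in males and 53.7% higher under the female labels. The summed level of the 14 markers was 21.61 to 21.64 in male floxed and 21.48 to 21.53 in the other libraries. Of 10 endothelial markers 8 fell and 0 rose in males, and 2 fell and 6 rose under the female labels, with group means of the log2 summed level of 15.87, 15.75, 15.71 and 15.80, male groups first and floxed before cardioGRKO. Of 9 listed adipocyte markers 8 were tested. In males 4 fell and 2 rose, under the female labels 0 fell and 7 rose, and the summed level averaged 15.08, 14.80, 14.79 and 14.94 in the same order. The endothelial and adipocyte levels were thus, like Bdh1, highest in male floxed libraries. Their mean was lowest in female floxed libraries, where the adipocyte level overlapped that of male cardioGRKO libraries. Of 9 fibroblast markers 7 rose and 0 fell in males, and 1 rose and 6 fell under the female labels (summed level 15.97, 16.11, 16.24 and 16.13). Of 7 tested epicardial and mesothelial markers of 8 listed, 4 rose and 0 fell in males, and 0 rose and 5 fell under the female labels. None of the endothelial, adipocyte, fibroblast or epicardial markers was listed at 0. Other lists differed otherwise. Of 10 stratified epithelium markers 0 rose and 0 fell in males, and 0 rose and 10 fell under the female labels (median -1.06). That list was high in libraries 1 and 2 labelled female floxed. Of 8 tested macrophage markers 0 rose and 0 fell in males, and 3 rose and 1 fell under the female labels. Of 9 smooth muscle and pericyte markers 1 rose and 6 fell in males, and 3 rose and 4 fell under the female labels. Of 6 tested B and T cell markers 5 rose in males and 4 under the female labels. Of 2 tested erythroid markers 1 rose in males and 2 under the female labels. The 3 others of the 5 listed, Hba-a1, Hbb-b1 and Hbb-b2, were at 0 in every library. The part of all these cells in the results was not tested.

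**Figure D4:**
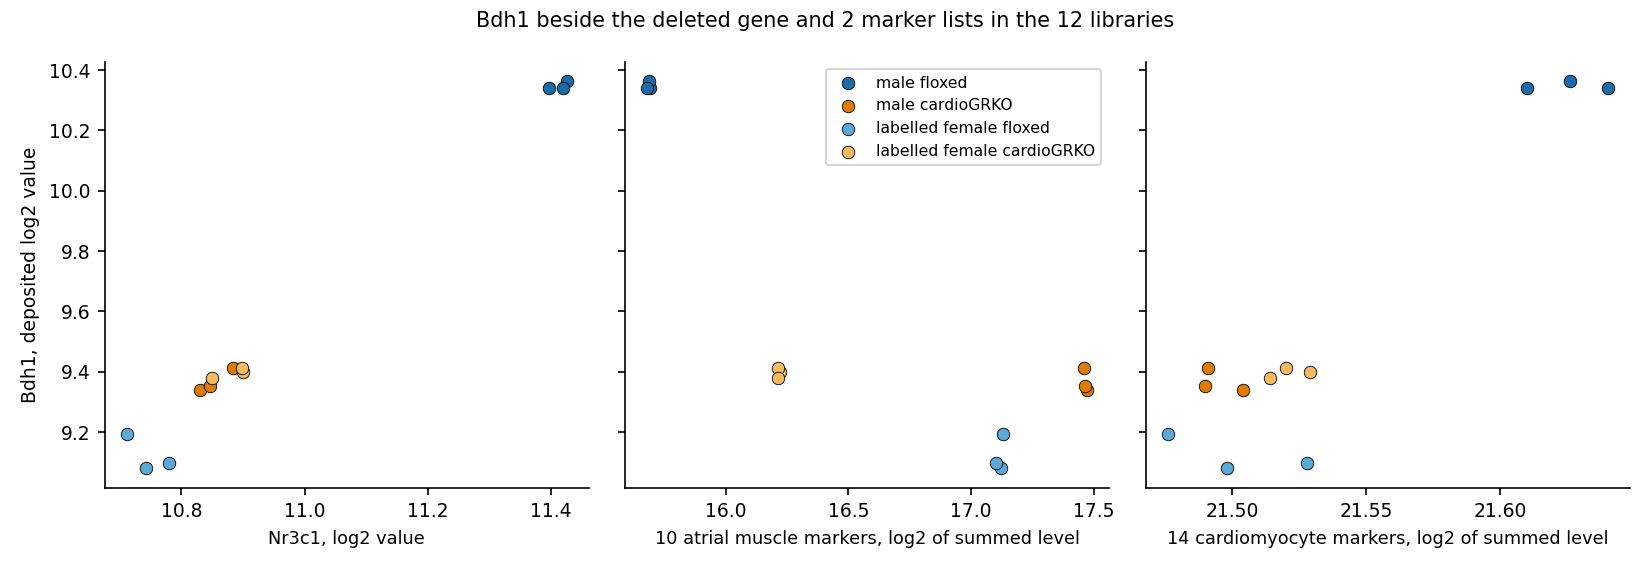
Bdh1 (vertical axis, deposited log2 value) in each of the 12 libraries against Nr3c1 (left, log2 value), 10 atrial muscle markers (middle) and 14 cardiomyocyte markers (right), both as the log2 of their summed level, coloured by group. The male floxed libraries stand apart in all 3 panels, and the mean atrial level is 17.47 in male cardioGRKO libraries and 16.22 in those labelled female cardioGRKO, with Bdh1 at 9.37 and 9.40.

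The genes most like Bdh1 over the 12 libraries were taken from 960 genes with a range of group means of at least 0.3 log2. They were Acaa2 and Ptgds (Pearson r 0.995 each), Nr3c1 itself (0.994), Myot and Lrg1 (0.993 each), Ckmt2 (0.992), Decr1 and Acss1 (0.990 each), Mgst1 (0.989) and Tmx1 (0.987). Each had its highest mean in male floxed and its lowest in female floxed libraries. Acaa2 was at 14.88, 14.54, 14.42 and 14.54, and Ptgds, a prostaglandin D synthase, at 10.35, 9.25, 9.01 and 9.34, with the male groups first and floxed before cardioGRKO. Acss1, which makes acetyl-CoA from acetate in mitochondria, had 13.23, 12.84, 12.78 and 12.86. The closest to Oxct1 were Iigp1 (0.998), Zfp106 (0.996) and Mfn1 (0.995), and to Acat1 Sucla2 and Hspa9 (0.993 each) and Acadm (0.990). Slc16a1, whose group means ranged by only 0.16, was compared with 13617 genes and was closest to Fgl2 (0.941), Bend4 (0.936) and Zbtb8os (0.928). The 12 points fall into 4 groups, so these values mostly compare group means.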

How the data were processed

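The data are 1 table of log2 values deposited by the authors, covering 24918 genes in 12 libraries. The authors used Trim Galore, TopHat2, HTSeq and DESeq2 with build mm9, per the submitters' processing notes, and the labels name an Illumina TruSeq library kit and a NextSeq500. Versions, strand setting and annotation are not given in the sources used here. The lowest value is -2.20, every library has 0 for 4895 genes, and low genes differ little, so the values look shrunken and differences of low genes may be understated. Counts and depth could not be recovered. Columns were tied to samples by name, and all value columns were used.

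Genes with at least log2 of 10 in at least 3 libraries were tested (14721). limma 3.58.1 (R 4.3.3) fitted 4 group means, leaving 8 residual degrees of freedom, with an intensity trend and Benjamini-Hochberg adjustment over all genes tested, and a gene was called under 0.05. The script was checked on simulated data. The genes and lists were chosen with earlier results of these data known. The text names the 4 genes, Nr3c1, other tested genes of ketone body use, 5 transport genes and, from each list, up to 4 genes with the smallest p in either sex. The planned test of the sexes is not given for the 4 genes, whose choice used the same values. A few list genes are not reported here and were left out of the lists' counts and medians. Likeness was ranked by Pearson r. Promoter windows are RefSeq's, and 3 of the 4 genes had one. Alternatives covered filters, scaling, moderation, weights, left-out libraries, separate fits for each sex and a replicate block. The background by level was added after the data were seen.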

Additional observations from a re-analysis of the deposited data

Results flagged for a closer look

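The male and the female change went in opposite directions for 3 of the 4 genes, with every male cardioGRKO library below every male floxed one and every library labelled female cardioGRKO above every one labelled female floxed. The male minus the female change was -1.25 for Bdh1, -0.56 for Oxct1 and -0.30 for Acat1 on the log2 scale. For these the difference was not tested, because both contrasts chose the genes. Of all genes tested, 7.19% separated in this way.

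For the other named genes below, limma's test of the difference between both changes was passed (adjusted p under 0.05), as by 31.3% of all genes tested. The male minus the female change was 0.12 for Bdh2 and -0.46 for Acaa2. Among transport genes it was -0.18 for Bsg and 0.20 for Slc16a12, and among regulators 0.11 for Ppargc1a, -0.23 for Esrra and -0.25 for Pparg. In lactate and pyruvate handling it was -0.41 for Pdk4, -0.26 for Ldhb, -0.26 for Pdhb and -0.22 for Ldha. Among genes listed for leucine and isoleucine breakdown it was -0.47 for Hadha, -0.42 for Bckdhb, -0.29 for Echs1 and -0.22 for Bckdha. Near succinyl-CoA it was -2.03 for Ogdhl, -0.25 for Suclg1, -0.38 for Ogdh and -0.33 for Sucla2. The difference for Bsg was lost after quantile normalization (-0.0089, adjusted p = 0.76).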

How the results depend on the processing

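Of 260 values of the 4 genes recomputed under 22 alternatives, 248 kept their direction and moved by less than 1 SD or kept their side of the threshold. The cause of the others was not tested. Filters, trend, moderation, the replicate block, fits within 1 sex and left-out libraries of the other sex cannot change a difference between genotypes. Much of the count of 248 was therefore fixed beforehand, and it says little about robustness. Quantile normalization gave -0.31 for Oxct1, -0.13 for Acat1 and 0.20 for Slc16a1 in males, and 0.13 for Oxct1 and -0.024 for Slc16a1 under the female labels, and median centring gave -0.19 for Acat1 in males. Without libraries 1 and 2 labelled female floxed, the female difference was 0.13 for Oxct1 and 0.071 for Acat1, and 2734 genes were called in place of 4309. There the lone library left was assumed to vary like the other groups. Female minus male of Slc16a1 was 0.077 after quantile normalization, 0.039 with library weights and 0.027 to 0.045 without 1 library, against 0.035. Bsg under the female labels turned to -0.0059 after quantile normalization. Leaving out 1 library at a time gave -1 to -0.97 for Bdh1 in males and 0.25 to 0.31 under the female labels, and 3391 to 4269 genes called in males and 3393 to 4272 under the female labels. Same-numbered libraries of a sex had deviations correlated at -0.11 to 0.15, so the numbers were not taken to pair them. With the replicate number as a block, 3752 genes were called in males and 3988 under the female labels. In this balanced layout the block cannot change the -0.98 of Bdh1, only its SE (0.029). Fits within 1 sex gave no sex comparison. Depth is unknown, so the precision rests on 3 libraries a group.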
